A study of Drosophila melanogaster with 2 samples.

Results

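Peaks of the small Maf protein maf-S that lay between or beside the start sites of oppositely transcribed genes were described in Drosophila melanogaster embryos. A peak was counted here when its summit, the base of highest enrichment, lay within 500 bp of an annotated start site of at least 1 protein-coding gene on the plus strand and at least 1 on the minus strand. The rule found 677 of the 3205 peaks on the authors' reproducible dm6 list (21.1%, exact binomial 95% interval 19.7% to 22.6%). A further 1131 peaks (35.3%) had start sites on 1 strand only within that distance and are called one-directional below, and 1397 peaks (43.6%) had no protein-coding start site there. The rule used position only, but every peak on the list had already passed the authors' reproducibility threshold. Signal and replicate support could therefore differ only among peaks selected in this way, and the lowest signal was 72.3 in each group.

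The samples formed 1 group of 2 biological replicates, numbered 2 and 3, with no second genotype, treatment or stage. All flies came from 1 transgenic line stably expressing maf-S with eGFP fused to its C-terminus, and the chromatin was taken from whole embryos of both sexes, aged 0 to 24 h. Chromatin was sonicated to fragments of 200 to 800 bp and precipitated with an antibody against GFP, then sequenced (ChIP-seq). The line is 1 insertion stock, and the embryos mixed many tissues and ages, so strong binding in few cells and weak binding in many cannot be told apart. Neither the labels nor the lists state the read depth. The values are the authors' signal per peak, a unitless enrichment score from their peak caller, which was compared only within a list.

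A divergent, or head-to-head, promoter is a stretch of DNA from which neighbouring genes are transcribed in opposite directions. Such pairs are common in the compact fly genome and often hold broadly expressed genes for translation, mitochondria and other basic cell functions. Small Maf proteins are basic leucine zipper factors without an activation domain of their own. In flies maf-S pairs with Cnc, the relative of mammalian Nrf2, to bind antioxidant response elements, and Keap1 restrains Cnc.

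The sequence between the nearest opposite start sites is printed for the strongest peaks whose interval was 40 to 300 bp long and held no annotated exon, because these are the shared promoters themselves. Sequences run 5′ to 3′ on the plus strand of dm6, from the base after the minus-strand gene's start to the base before the plus-strand gene's start, and come from RefSeq's Drosophila Release 6 genome, the assembly named dm6. Capitals mark the sequence elements defined in the next paragraphs: the DNA replication-related element (DRE), motif 1, the relaxed Cnc-Maf sequence, motif 7, the E-box CAGCTG, and CGATA where it occurred at least 2 times apart from a DRE. Pairs are named with the minus-strand gene first. The 8 strongest were the following.
Chro/Ssl1: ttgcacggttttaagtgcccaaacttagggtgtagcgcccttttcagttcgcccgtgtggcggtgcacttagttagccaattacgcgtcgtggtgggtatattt
Art3/mRpS10: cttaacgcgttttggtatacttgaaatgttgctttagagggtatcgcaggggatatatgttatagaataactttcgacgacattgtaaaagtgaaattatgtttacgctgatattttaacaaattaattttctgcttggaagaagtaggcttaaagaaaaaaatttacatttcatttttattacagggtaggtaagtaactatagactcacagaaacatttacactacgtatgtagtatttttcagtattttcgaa
Tcs5/CHMP2B: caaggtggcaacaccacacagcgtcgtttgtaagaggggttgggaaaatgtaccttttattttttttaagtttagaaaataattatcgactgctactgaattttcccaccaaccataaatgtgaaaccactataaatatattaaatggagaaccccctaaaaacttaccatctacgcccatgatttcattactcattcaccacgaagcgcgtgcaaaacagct
Atat/Shc: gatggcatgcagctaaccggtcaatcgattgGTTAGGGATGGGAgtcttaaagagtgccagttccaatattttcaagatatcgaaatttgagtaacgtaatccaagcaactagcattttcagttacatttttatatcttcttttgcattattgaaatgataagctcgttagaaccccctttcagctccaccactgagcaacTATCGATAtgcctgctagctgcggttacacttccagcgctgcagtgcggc
CG8372/CG8360: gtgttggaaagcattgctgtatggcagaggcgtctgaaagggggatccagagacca
Mkk4/SLIRP2: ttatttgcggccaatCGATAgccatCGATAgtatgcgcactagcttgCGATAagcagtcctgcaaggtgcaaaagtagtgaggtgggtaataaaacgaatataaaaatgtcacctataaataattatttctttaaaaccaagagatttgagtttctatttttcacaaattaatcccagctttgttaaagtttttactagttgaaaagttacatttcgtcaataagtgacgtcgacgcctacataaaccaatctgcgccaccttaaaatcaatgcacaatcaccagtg
RpS27/Nup37: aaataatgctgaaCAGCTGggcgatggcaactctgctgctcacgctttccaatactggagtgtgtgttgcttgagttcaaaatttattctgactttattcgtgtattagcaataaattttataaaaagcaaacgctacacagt
CG7601/CIA30: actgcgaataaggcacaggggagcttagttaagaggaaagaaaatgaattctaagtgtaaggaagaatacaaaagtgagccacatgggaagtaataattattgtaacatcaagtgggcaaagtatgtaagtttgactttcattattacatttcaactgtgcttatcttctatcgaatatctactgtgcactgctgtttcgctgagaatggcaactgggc

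These intervals lie at chr3L:22878985-22879088 (Chro/Ssl1), chr3R:15229409-15229664 (Art3/mRpS10), chr3L:5139396-5139618 (Tcs5/CHMP2B), chr3L:9426759-9427009 (Atat/Shc), chr2L:8212903-8212958 (CG8372/CG8360), chr3R:8650797-8651083 (Mkk4/SLIRP2), chr3R:25247515-25247657 (RpS27/Nup37) and chr3R:29736746-29736964 (CG7601/CIA30). Of these 8 sequences, 3 held a marked element. The Atat/Shc interval held a DRE 68 bp and a motif 7 match 99 bp from the summit, the Mkk4/SLIRP2 interval held 3 copies of CGATA at 147, 169 and 179 bp, and the RpS27/Nup37 interval held CAGCTG 9 bp from the summit. The other 5 held none of the 6 elements, and in Chro/Ssl1 and CG8372/CG8360 the summit itself fell outside the interval. GC content ran from 30.1% in Art3/mRpS10 to 53.6% in CG8372/CG8360.

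A further 3 intervals, chosen after their values were seen, show where the DRE and motif 1 fell. They are examples of exon-free pairs with the element inside the interval itself, and not the strongest carriers overall. The DRE is shown at chr2L:19045149-19045354 (signal 242.0) and chr3R:11216288-11216534 (signal 227.2), and motif 1 at chr3R:19028858-19028930 (signal 225.3).
Ttc19/Acn: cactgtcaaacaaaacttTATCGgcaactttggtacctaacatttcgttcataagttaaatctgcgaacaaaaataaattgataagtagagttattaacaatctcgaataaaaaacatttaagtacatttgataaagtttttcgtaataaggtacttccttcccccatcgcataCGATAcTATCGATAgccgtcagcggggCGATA
RpS25/CG4820: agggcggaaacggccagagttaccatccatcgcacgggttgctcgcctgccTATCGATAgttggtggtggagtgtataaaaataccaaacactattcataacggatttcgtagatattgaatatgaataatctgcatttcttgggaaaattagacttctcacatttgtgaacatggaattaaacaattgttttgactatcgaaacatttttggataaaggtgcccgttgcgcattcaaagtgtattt
GatA/P5cr: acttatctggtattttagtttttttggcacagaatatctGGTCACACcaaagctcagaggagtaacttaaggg

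In RpS25/CG4820, next to the gene of a small ribosomal subunit protein, the centre of the DRE lay 9 bp from the summit. In Ttc19/Acn the DRE lay 63 bp from the summit, with 3 further CGATA cores at 56, 83 and 100 bp. In GatA/P5cr, beside the gene of a pyrroline-5-carboxylate reductase, motif 1 lay 48 bp from the summit.

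The median signal of the divergent peaks was 120.6, with a middle 50% of 90.9 to 175.0 and a range of 72.3 to 1211. The one-directional peaks had a median of 108.3 and a range of 72.3 to 1624, and the peaks away from start sites a median of 105.1 and a range of 72.3 to 1703. The divergent median was higher by 0.16 on the log2 scale than the one-directional one. Of the divergent peaks 378 (55.8%) exceeded the median of all promoter peaks, against 526 (46.5%) of the one-directional peaks, an odds ratio of 1.45 (95% interval 1.20 to 1.77; Benjamini-Hochberg adjusted p = 0.000248 over 5 comparisons by two-sided Fisher's exact test, as for all odds ratios below). The ranges overlapped almost wholly, and the odds ratio turned to 0.838 (0.642 to 1.09; exact test, adjusted p = 0.190) among the 1602 peaks of highest signal, so the direction did not hold there. Peaks, not animals, were counted in these tests: the intervals cover counting over peaks and not the spread between replicates.

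The share of divergent peaks fell with rank. It was 24.7% (158 of 641) at ranks 1 to 641, 26.1% (167) at 642 to 1282, 20.6% (132) at 1283 to 1923, 17.9% (115) at 1924 to 2564 and 16.4% (105) at 2565 to 3205. Below the reproducibility threshold, in the rest of the authors' pooled list, it was 13.0% at ranks 3206 to 6410, 6.12% at 6411 to 12820 and 2.60% at 12821 to 30000. The lists of both single replicates showed the same order at their ends, with 27.0% of ranks 1 to 641 and 2.47% of the last ranks in replicate 2, and 23.7% and 2.67% in replicate 3. One-directional peaks fell less steeply, from 38.2% to 17.4% in the pooled list.

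**Figure D1:**
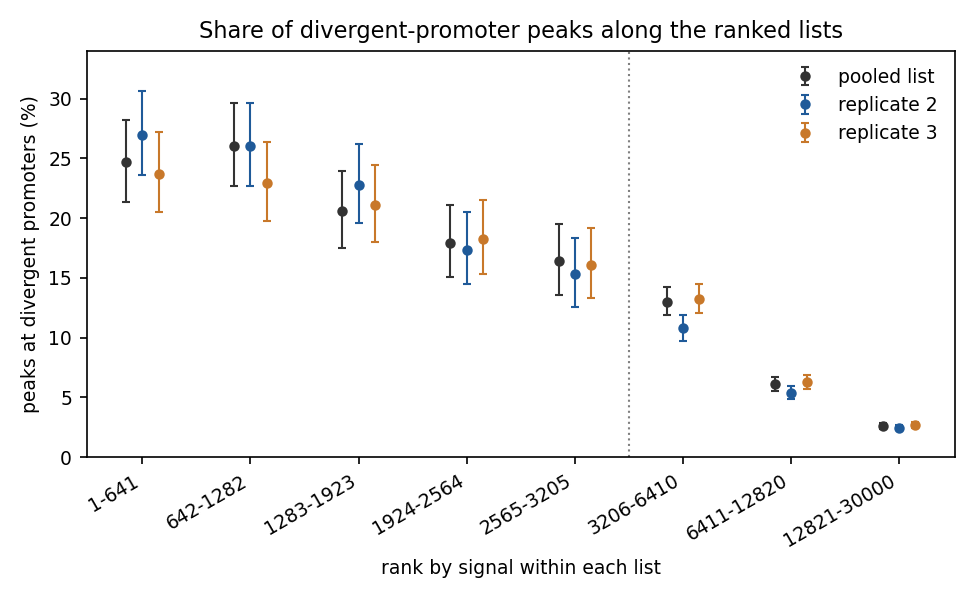
Share of peaks at divergent promoters (percent, vertical axis) in 8 classes of rank by signal (horizontal axis), in the pooled list and in each replicate's own list. Points are shares, bars exact binomial 95% intervals, and the dotted line stands at rank 3205, the end of the thresholded list; the pooled share is 24.7% in the first class and 2.60% in the last.

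The strongest divergent peak lay at Chro and Ssl1, chr3L:22878711-22879092, with a signal of 1211 in the pooled list. It ranked 5 in replicate 2 (signal 519.2) and 7 in replicate 3 (signal 693.7). Chro encodes Chromator, a chromodomain protein of polytene interbands and of the spindle matrix, and Ssl1 a subunit of the general transcription factor TFIIH. The start sites are 105 bp apart, and the summit lay 98 bp to the left of the Chro start, inside the Chro transcript.

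Next came Art3/mRpS10 at chr3R:15229357-15229709, with a signal of 1168 and rank 8 in both replicates (481.4 in replicate 2 and 684.4 in replicate 3). Art3 encodes a protein arginine methyltransferase and mRpS10 a protein of the small mitochondrial ribosomal subunit. Its summit lay 121 bp from one start and 136 bp from the other, close to the middle of a 257 bp gap. Tcs5/CHMP2B at chr3L:5139339-5139668 was as central, 113 and 111 bp from its starts, with a signal of 922.7 (390.8 in replicate 2, 528.9 in replicate 3). Tcs5 is the kinase subunit of the KEOPS complex of tRNA modification, and CHMP2B belongs to the membrane-remodelling ESCRT-III complex.

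The mRpS23/CenG1A peak, between the gene of another mitochondrial ribosomal protein and that of an Arf GTPase-activating protein, had a signal of 875.5 and ranks 18 and 15 in replicates 2 and 3. Here the gap was 492 bp, and the summit was 114 bp from the CenG1A start but 378 bp from the mRpS23 start. Pdrg1/Pal1, which holds the gene of a peptide-amidating lyase, reached 859.7 with a summit 193 and 153 bp from the starts. At Fbw5/CG9147 (793.5), Fbw5 being an F-box protein of ubiquitin ligases, the summit coincided with the CG9147 start. These 3 peaks therefore ranged from an off-centre position in a wide gap to the start site itself.

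Atat/Shc, the genes of the alpha-tubulin acetyltransferase and of a receptor tyrosine kinase adaptor, had a signal of 781.2, and it was the only one of the 15 strongest with a DRE within 100 bp of the summit. A DRE lay there in 13.1% of all 677 divergent peaks. CG8372/CG8360 followed at 716.3, CG5757/CG5098 at 642.2 and Mkk4/SLIRP2 at 626.1, where Mkk4 is a kinase of the JNK pathway and SLIRP2 a mitochondrial RNA-binding protein. The remaining 5 were tank/CG12194 (615.3), Pex11ab/CG8320 (599.2), RpS27/Nup37 (542.5), mRpL23/CG9004 (540.6) and CG7601/CIA30 (540.0). They include genes for peroxisome division (Pex11ab), the cytosolic ribosome (RpS27), the nuclear pore (Nup37), the mitochondrial ribosome (mRpL23) and respiratory complex I assembly (CIA30).

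All 15 ranked high in both replicates, with a worst rank of 79 in replicate 2 and 66 in replicate 3. They were chosen by the signal pooled from these same replicates, so the ranks are not independent support. In the thresholded list 3 of them stood among the top 15 peaks, and 30 divergent peaks stood among the top 100. Divergent peaks made up 21.1% of the whole list. None of the 15 had motif 1 or the relaxed Cnc-Maf sequence within 100 bp of the summit. Among all 677 divergent peaks the shares were 6.79% and 6.06%, so a count of 0 among 15 is not a departure from them.

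At the other end, the 5 weakest divergent peaks had signals of 72.3 to 72.4. They were CG15387/sau, Pis/Hap40, Ravus/Su(var)3-7, Nak/Tango6 and CG31626/Hr39. Their ranks differed widely between replicates: 8384 and 3445 for CG15387/sau, 2417 and 4761 for Pis/Hap40, 1649 and 9133 for Ravus/Su(var)3-7, and 4390 and 2664 for Nak/Tango6, in replicates 2 and 3. CG31626/Hr39, beside the gene of a nuclear hormone receptor, had no peak within 150 bp in replicate 2 and ranked 2460 in replicate 3. None of these 5 stood among the 3205 strongest peaks of both replicates. The CG15387/sau pair also held a stronger divergent peak of 239.8, with ranks 310 and 368 in replicates 2 and 3.

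Of all 677 divergent peaks, 665 had a peak within 150 bp in replicate 2 and 672 in replicate 3, out of lists of 30000. Among the 3205 strongest peaks of a replicate, 588 (86.9%) were found in replicate 2 and 589 (87.0%) in replicate 3. Both replicates held 524 (77.4%, 74.1% to 80.5%), against 824 of 1131 one-directional peaks (72.9%), an odds ratio of 1.28 (1.02 to 1.61; exact test, adjusted p = 0.0425). With matching within 50 bp the odds ratio was 1.15 (0.939 to 1.40; exact test, adjusted p = 0.177), and with 1 start site per gene it was 1.23 (exact test, adjusted p = 0.0841). In a single replicate's list the call was lost too, at 1.17 (exact test, adjusted p = 0.306) without replicate 2 and 1.27 (exact test, adjusted p = 0.109) without replicate 3. The call therefore does not hold across these settings. Over the 660 divergent peaks matched in both lists, Pearson's r of log2 signal was 0.80 and Spearman's rho of ranks 0.73, and over the 1118 one-directional peaks 0.81 and 0.70. These are descriptions across peaks of the same pair of libraries, on a list that the authors had already selected for reproducibility.

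**Figure D2:**
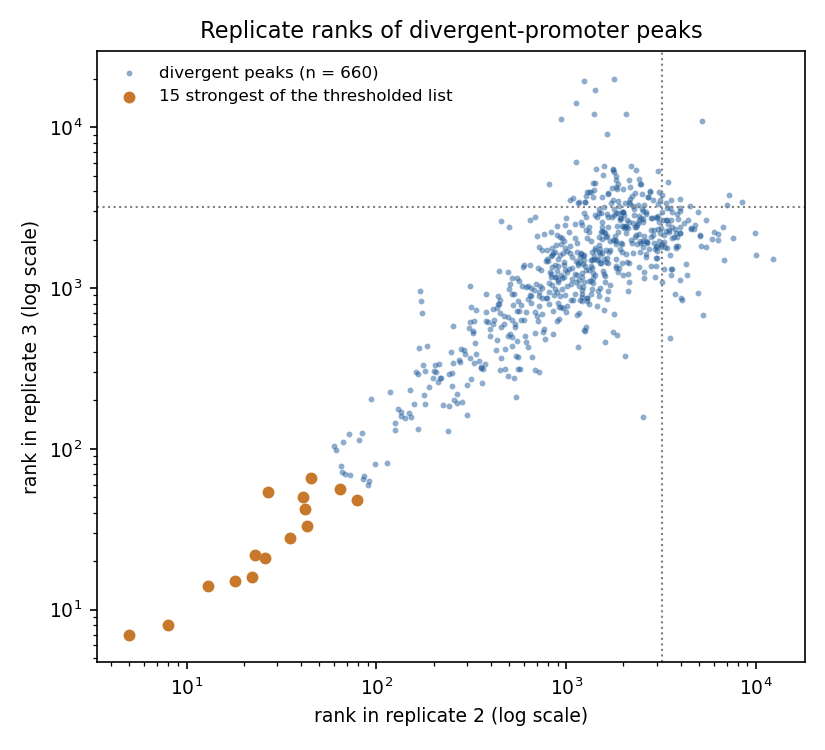
Rank of each divergent peak by signal in replicate 2 (horizontal, log axis) against its rank in replicate 3 (vertical, log axis), for the 660 peaks matched within 150 bp in both lists; dotted lines stand at rank 3205. Larger points are the 15 strongest divergent peaks of the thresholded list, all at rank 79 or better in replicate 2 and 66 or better in replicate 3, and the spread is wider among weak peaks.

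By their nearest start sites, 669 of the 677 peaks belonged to head-to-head pairs, in which the minus-strand start lies to the left of the plus-strand start. In the other 8 the transcribed regions overlap at their starts, by 11 bp at CG43345/mAcon1 to 234 bp at CG31808/Cyt-c-d, and CG4741/Adck1 was the strongest of these with a signal of 477.8. The median gap of the 669 pairs was 278 bp, with a middle 50% of 195 to 367 bp and a range of 6 to 717 bp. Summits lay between the start sites in 562 cases (84.0%, 81.0% to 86.7%), to the left of the minus-strand start in 59 and to the right of the plus-strand start in 48. The nearest start belonged to the minus-strand gene in 320 and to the plus-strand gene in 349.

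The median distance from summit to gap midpoint was 63 bp, and 280 summits (41.9%) lay within 50 bp of the midpoint. The position moved with the gap. In gaps of 201 to 300 bp the median distance was 50 bp to the midpoint and 79 bp to the nearest start, and 202 of 221 summits were between the starts. In gaps of 401 to 500 bp it was 129 bp to the midpoint and 92 bp to the nearest start. In gaps of 501 to 700 bp the order was the other way, with 116.5 bp to the midpoint and 155 bp to the nearest start. The rule asks for both starts within 500 bp of the summit, so in such wide gaps it keeps summits towards the midpoint. The order there is therefore set in part by the rule. In gaps of up to 100 bp only 33 of 89 summits (37.1%) fell between the starts, the space there being smaller.

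**Figure D3:**
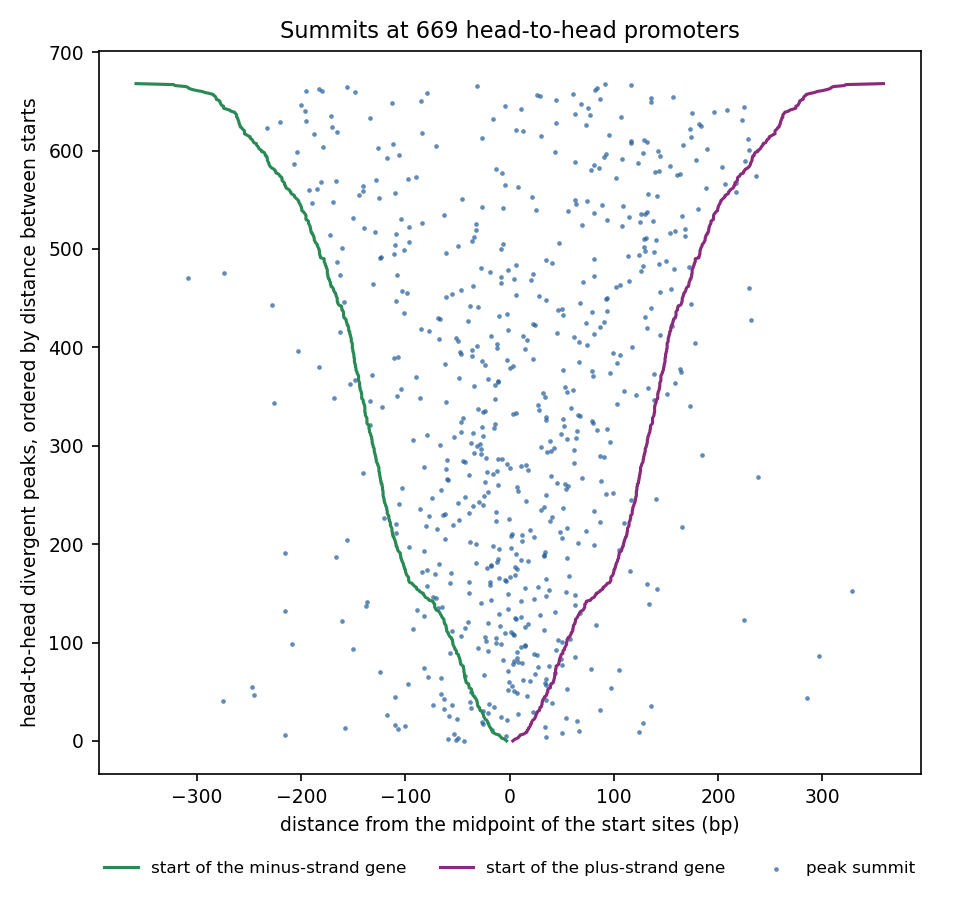
Each row (vertical axis, ordered by distance between the starts) is 1 of the 669 head-to-head divergent peaks, with distance from the midpoint of its nearest opposite start sites in bp on the horizontal axis. The curves are the start sites of the minus-strand and plus-strand genes and the points are the summits, 562 of which lie between the curves.

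Within 100 bp of a start site lay 471 of the 677 divergent summits (69.6%) and 468 of the 1131 one-directional summits (41.4%). Median distances to the nearest start were 71 and 129 bp. The rule used these distances, and starts on both sides make a near start more likely by construction, so these values are a description with no test. Of the one-directional summits 932 (82.4%) lay upstream of their nearest start. At the edge of the rule, the farther start lay 499 bp away at Pde11/CG15160 (signal 75.4), 496 bp at CG10324/CCT3 (93.0) and 490 bp at fs(2)ltoPP43/sick (94.7), which counted. It lay 502 bp away at bys/RpS6 (81.6), 503 bp at CG2926/PolZ2 (83.6) and 508 bp at crp/pkaap (226.5), which did not. Of the one-directional peaks 157 had an opposite start within 1000 bp.

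The 677 peaks belonged to 635 nearest gene pairs, of which 42 held 2 peaks and none more. At RpS27/Nup37 a peak of signal 542.5 was accompanied by one of 95.4 whose summit lay to its right. At Bdp1/CG6565, where Bdp1 is a subunit of the RNA polymerase III factor TFIIIB, the authors listed a single interval, chr2L:13373793-13374211, with summits of 476.4 and 114.9. In 640 windows there was 1 gene on each strand and in 37 there were at least 3 genes. The most crowded, with 10, consisted of annotation pieces of the trans-spliced mod(mdg4) locus, which are not separate promoters in the usual sense.

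Genes at divergent peaks numbered 1317, which is 9.44% of the 13945 protein-coding genes on the chromosome arms. All thresholded promoter peaks together reached 2356 genes (16.9%), so 55.9% of these were at divergent peaks. Genes with only a CG number for a name made up 29.1% of the genes at divergent peaks, 28.3% of the other 1039 bound genes and 43.7% of all protein-coding genes.

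A gene was more often bound when an opposite-strand neighbour started within 1000 bp upstream of it. Of 5052 such genes 1523 (30.2%, 28.9% to 31.4%) had a summit within 500 bp of a start site, against 833 of 8893 other genes (9.37%, 8.77% to 9.99%). The odds ratio was 4.18 (3.80 to 4.59; exact test, adjusted p = 1.90e-208). Partners share a peak, so the genes are not independent, and a p-value over genes is too small. The 2667 head-to-head pairs within 1000 bp, each counted once, had a summit within 500 bp of both starts in 687 cases (25.8%).

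Binding varied with the gap. It was 27.5% of 429 pairs with gaps up to 100 bp, 28.3% at 101 to 200 bp, 40.8% (36.6% to 45.1%) of 542 pairs at 201 to 300 bp, 35.5% at 301 to 400 bp, 21.7% at 401 to 500 bp, 12.7% at 501 to 700 bp and 0.323% (1 of 310) at 701 to 1000 bp. The window in which a summit counts for both starts shrinks as the gap grows. With a window of the same size for every pair, within 250 bp of the midpoint, the shares were 23.5%, 27.2%, 40.4%, 35.0%, 21.3%, 16.6% and 5.16%, again highest at 201 to 300 bp. In gaps over 500 bp both starts lie outside that window, so summits at the starts cannot count there. The low shares of the widest gaps are thus set in part by either window. The intervals of the 201 to 300 bp and 301 to 400 bp groups overlap, and those of 101 to 200 bp (23.7% to 33.3%) and 201 to 300 bp do not. Median signal of the members was 128.1 at 201 to 300 bp and 100.2 at 501 to 700 bp, and the single member at 701 to 1000 bp had 73.0.

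**Figure D4:**
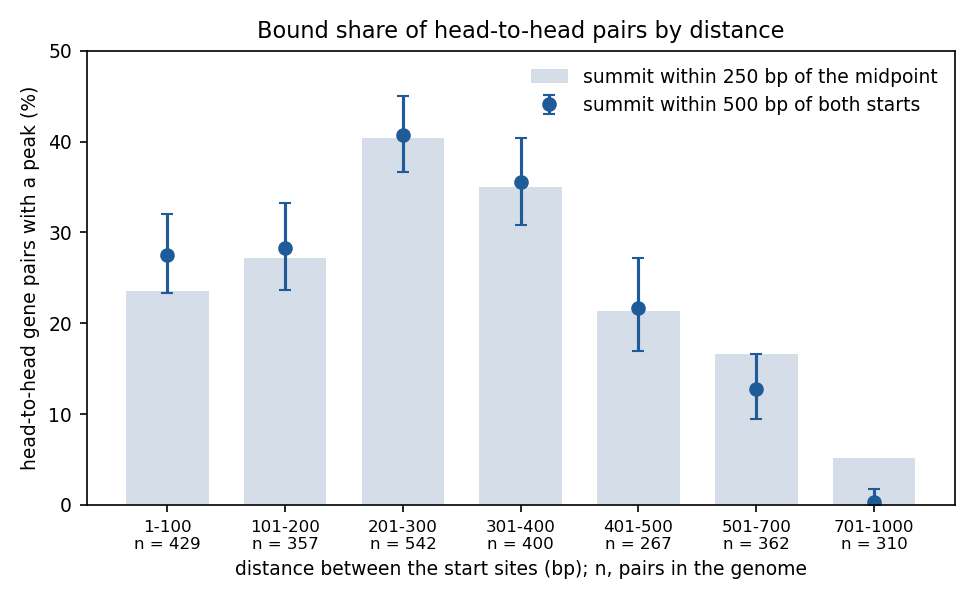
Share of head-to-head gene pairs with a thresholded maf-S peak (percent, vertical axis, from 0) by distance between the start sites in bp. Points with exact binomial 95% intervals count summits within 500 bp of both starts, bars count summits within 250 bp of the midpoint, and both are highest at 201 to 300 bp, at 40.8% and 40.4%.

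Cytosolic ribosomal protein genes were common: 29 of 86 (33.7%) lay at divergent peaks, against the background of 9.44%. A thresholded promoter peak of some kind was present at 63 of 86 (73.3%), against 16.9% of all genes, so a high share was not particular to divergent peaks. Of these 63 genes 29 were at divergent peaks, against 55.9% of all genes with a promoter peak. The strongest divergent peaks of the list were RpS27/Nup37 (542.5), Ripalpha/RpL7 (463.4) and RpL34b/CG8132 (425.6). Mitochondrial ribosomal proteins gave 19 of 73 (26.0%), with mRpS10 at 1168, mRpS23 at 875.5 and mRpL23 at 540.6, and 58 of the 73 (79.5%) have a head-to-head neighbour, against 36.2% of all genes and 61.6% of cytosolic ribosomal protein genes. Of those 58 mitochondrial genes 21 were bound, against 30.2% of all genes with such a neighbour. Any promoter peak was present at 22 of the 73 (30.1%). Aminoacyl-tRNA synthetases, which charge tRNAs, gave 9 of 33 (27.3%), led by SerRS/CG17260 (281.3), GluProRS/AP-1sigma (192.8) and Patsas/ThrRS (176.5). All 9 synthetase genes with a promoter peak were at divergent ones, and 69.7% of the synthetase genes have a head-to-head neighbour. The share was 51.9% for the respiratory chain, 54.2% for the proteasome, and 26 of 52 translation factor genes have such a neighbour. These counts are descriptions beside the background, and no test of a list was made.

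Respiratory chain and ATP synthase subunits gave 14 of 79 (17.7%), among them TppII/ND-MWFE (302.3), ND-ASHI/Fum1 (249.8) and ND-51/CG13994 (197.0). Any thresholded promoter peak was present at 15 of the 79 (19.0%), against 16.9% of all genes. Of the 41 respiratory genes with a head-to-head neighbour 14 were bound, against 30.2% of all genes with such a neighbour. Proteasome subunits gave 8 of 48 (16.7%), with Hat1/Rpn5 (224.2), Rpn6/ave (170.0) and l(2)37Bb/Rpn3 (164.3). Any promoter peak was present at 11 of the 48 (22.9%), and 8 of the 26 with a head-to-head neighbour were bound. Translation factors gave 7 of 52 (13.5%), with RpL28/eIF1 (219.9), eIF4EHP/CG18428 (198.5) and eIF3a/CG1074 (133.9), and 17 of the 52 had any thresholded promoter peak. DNA replication genes gave 7 of 29 (24.1%), with PCNA2/CG10366 at 122.9, RnrS/CG34231 at 122.7 and Art1/Mcm5 at 110.8 the strongest of them. Of the DNA replication genes 65.5% have a head-to-head neighbour. Of those 19 genes 7 were bound, and no other DNA replication gene had a promoter peak. Nucleoporins gave 5 of 21 (23.8%), among them Nup98-96/mbc (249.0) and Csl4/Nup160 (198.5), and 85.7% of nucleoporin genes have a head-to-head neighbour. Of those 18 genes 5 were bound, and any promoter peak was present at 6 of the 21 (28.6%).

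Of 34 genes of the Cnc-Keap1 and antioxidant list, 6 (17.6%) were at divergent peaks, against 9.44% of all protein-coding genes. Any thresholded promoter peak was present at 8 (23.5%), against 16.9% of all genes. A head-to-head neighbour was present for 16 of the 34 (47.1%), against 36.2% of all genes. Of those 16 genes 6 were bound, against 30.2% of all genes with such a neighbour. The ferritin genes Fer1HCH and Fer2LCH, which encode the iron-storing heavy and light chains, share a promoter with a 98 bp gap and had a peak of 330.7 at chr3R:30388489-30388666. That peak ranked 118 in replicate 2 and 225 in replicate 3, and its summit lay 248 bp to the right of the Fer2LCH start. The ABC transporter gene MRP with Pih1D1 had 271.1. Keap1 itself, with the nuclear envelope gene kuk, had 147.8, with ranks 1212 and 880 and a summit 42 bp from the Keap1 start. The thioredoxin reductase gene Trxr1, with the carbonyl reductase gene sni, had 95.4, with ranks 2006 and 2362. Prx6a was the sixth gene.

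Pairs with both genes in a list were few: RpS27/Nup37 with 2 peaks, Fer1HCH/Fer2LCH, RpL28/eIF1 and RPA1/Mcm2, the last at 85.2 with genes of single-strand DNA binding and of the replicative helicase. None of 35 glutathione S-transferase, 82 cytochrome P450, 35 UDP-glycosyltransferase and 70 cuticle protein genes lay at a divergent peak, against 9.44% of all genes. Few of them have a head-to-head neighbour (7, 13, 7 and 4), so these zeros say little about binding. Any promoter peak was present at 2 glutathione S-transferase and 3 cytochrome P450 genes. Of 179 chemosensory receptors 2 (1.12%) lay at a divergent peak, Ir60e (113.9) and Gr63a (86.1), whose partners were CG13585 and Lamtor4. A head-to-head neighbour was present for 26 of the 179. None of 31 Hox and segmentation genes lay at a divergent peak, none of them has a head-to-head neighbour, and 1 had a promoter peak.

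Sequence within 100 bp of each summit was searched on both strands for 15 elements. Divergent summits lay nearer to start sites, partly by construction, at a median of 71 bp against 129 bp for one-directional ones. Their windows therefore covered sequence closer to a start. Comparisons of divergent with one-directional peaks were not adjusted for this distance, and its part in the differences was not tested. The DRE (TATCGATA), bound in flies by DREF, occurred at 89 of 677 divergent peaks (13.1%, 10.7% to 15.9%) and at 89 of 1131 one-directional peaks (7.87%, 6.37% to 9.59%), an odds ratio of 1.77 (1.28 to 2.45; exact test, adjusted p = 0.00137 over the 15). Its share was 5.74% of all thresholded peaks, 0.429% of peaks away from starts and 7.84% of windows of the same width at protein-coding start sites, 1 per gene. Those promoter windows were centred on the outermost start of each gene and not on summits. Shares given below for all promoters therefore differ from peak shares in window placement too. With a promoter distance of 250 bp the odds ratio was 1.47 (exact test, adjusted p = 0.0953), and with 1 start site per gene 1.46 (exact test, adjusted p = 0.0807), so the call depends on how promoters are counted.

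Motif 7 had the highest odds ratio among the called elements. It is a core promoter element known from fly promoter surveys and lay at 142 divergent peaks (21.0%, 18.0% to 24.2%) against 116 one-directional peaks (10.3%, 8.55% to 12.2%), an odds ratio of 2.32 (1.76 to 3.06; exact test, adjusted p = 1.01e-08). It lay in 7.58% of all promoter windows. The E-box CAGCTG was also more frequent, at 122 (18.0%) against 134 (11.8%), an odds ratio of 1.64 (1.24 to 2.15; exact test, adjusted p = 0.00137), with 13.8% of all promoters. That call was lost with windows of 50 bp (odds ratio 1.26; exact test, adjusted p = 0.446) and at a promoter distance of 250 bp (1.07; exact test, adjusted p = 0.792). The TATA box TATAAA lay in 34.4% against 27.5% (odds ratio 1.38; exact test, adjusted p = 0.00635), with 29.2% of all promoters. Peaks away from starts held TATAAA in 30.1%, so its presence does not mark promoters here. At least 2 copies of CGATA, the core bound by the insulator protein BEAF-32, lay in 18.0% against 13.7% (odds ratio 1.38; exact test, adjusted p = 0.0378), and in 13.4% of all promoters. TATCGATA contains CGATA on both strands and was masked for that count.

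GAGAGAG, the GAGA element bound by the GAGA factor, was rare at divergent peaks: 6 of 677 (0.886%, 0.326% to 1.92%) against 62 of 1131 (5.48%, 4.23% to 6.97%), an odds ratio of 0.154 (0.0542 to 0.358; exact test, adjusted p = 5.18e-07). It lay in 3.69% of all promoters. The 6 exceptions, named after their values were seen, were retm/frj (174.9), ntc/IntS10 (172.8), CG5611/Mtl (140.4), Spase22-23/mask (130.0), Rb97D/ms(3)K81 (107.4) and CG17816/ArgRS-m (88.6). The initiator-like TCAGTT was also less frequent, at 68 against 155 peaks (odds ratio 0.703, 0.511 to 0.959; exact test, adjusted p = 0.0473), with 21.3% of all promoters.

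The relaxed Cnc-Maf sequence TGACNNNGC showed no called difference, with 41 (6.06%, 4.38% to 8.13%) against 73 (6.45%, 5.09% to 8.05%), an odds ratio of 0.934 (0.613 to 1.41; exact test, adjusted p = 0.820). It lay in 6.45% of all promoters and 5.01% of peaks away from starts. The strongest divergent peaks with it were Lon/PIG-F (503.1), the genes of a mitochondrial protease and of a GPI anchor enzyme, Bdp1/CG6565 (476.4), CG13390/CG17294 (298.6) and CG13018/CG13016 (250.9). The Trxr1 peak and the ball/His2Av peak (202.5) also held it, both named after their values were seen. The stronger antioxidant-list peaks at Fer1HCH/Fer2LCH (330.7), Pih1D1/MRP (271.1) and Keap1/kuk (147.8) did not hold it. TGCTGA, the core of a Maf recognition site, lay in 11.1% against 8.58% (odds ratio 1.33, 0.952 to 1.85; exact test, adjusted p = 0.137), with 11.2% of all promoters.

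Motif 1 (GGTCACAC), bound by M1BP, lay at 46 divergent peaks (6.79%) against 63 (5.57%), an odds ratio of 1.24 (0.815 to 1.86; exact test, adjusted p = 0.460), with 6.76% of all promoters. With windows of 200 bp the odds ratio was 2.03 (1.48 to 2.79; exact test, adjusted p = 2.53e-05). Its strongest carriers were Ripalpha/RpL7 (463.4), CG7130/RpLP0 (283.4), Nup98-96/mbc (249.0) and GatA/P5cr (225.3), of which 2 hold a ribosomal protein gene. No call was made for CACGTG (3.10% against 3.09%; all promoters 2.88%), the AP-1 site TGACTCA (2.36% against 1.95%; 1.60%), the cAMP response element (CRE) TGACGTCA (0.591% against 0.354%; 0.222%), the Zelda site CAGGTAG (0.295% against 0.707%; 1.03%) or motif 6 (1.48% against 0.531%; 1.67%), whose adjusted p-values by Fisher's exact test ran from 0.123 for motif 6 to 1 for CACGTG.

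**Figure D5:**
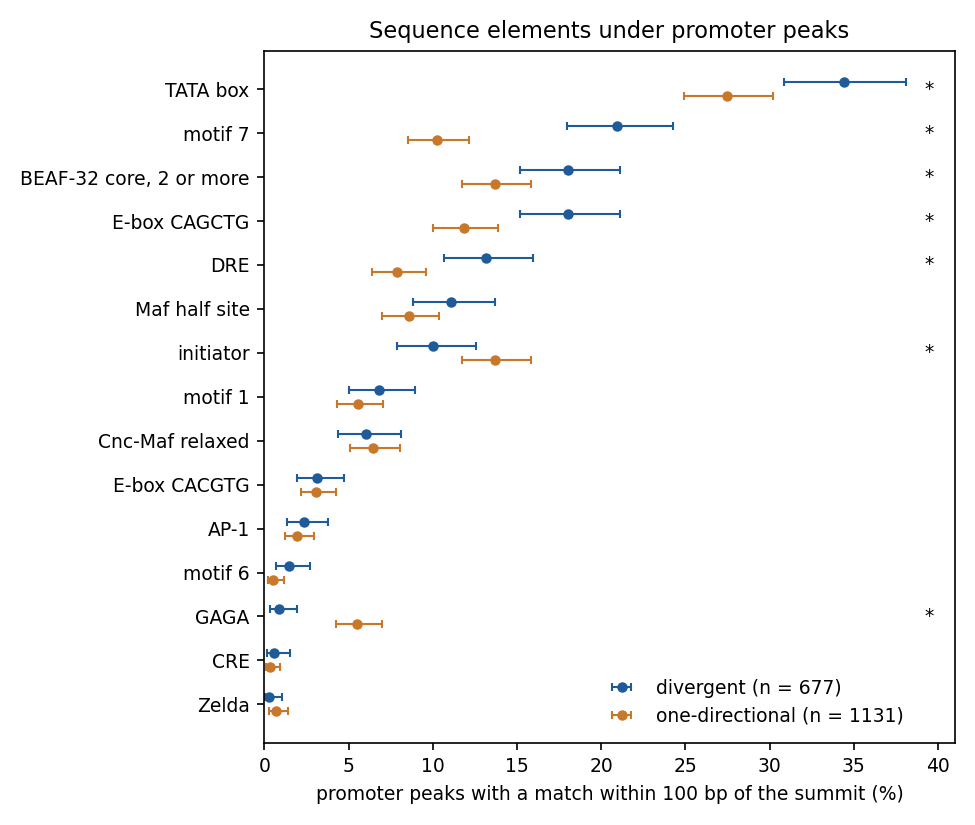
Share of promoter peaks (percent, horizontal axis) with each of 15 sequence elements within 100 bp of the summit, for 677 divergent and 1131 one-directional peaks; points are shares and bars exact binomial 95% intervals. Asterisks mark an adjusted p below 0.05 by Fisher's exact test over the 15 elements; motif 7 (21.0% against 10.3%) is more frequent and the GAGA element (0.886% against 5.48%) less frequent at divergent peaks.

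Base composition moved with these shares: median GC content of the windows was 35.8% at divergent and 37.8% at one-directional peaks. Pooled over 3 strata of GC content, the odds ratio was 2.59 for motif 7 and 0.161 for GAGAGAG, close to the values without strata. The TATA box TATAAA, made of A and T only, was not examined in these strata.

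Among the 89 divergent peaks with a DRE, the DRE centre lay between the nearest start sites in 75. It was a median of 42.5 bp from the summit and 27.5 bp from the nearest start, and in 28 peaks it lay within 25 bp of the summit. The strongest were Atat/Shc (781.2), GCS2beta/CG5131 (325.0), RpL41/NaCP60E (290.5) and CG11180/FAM21 (288.0), among them a ribosomal protein gene. Only 6 members had more than 1 DRE, 6 had both a DRE and motif 1, and 129 (19.1%) had either. No difference in signal was called for the DRE: the median was 117.6 with it and 122.6 without, and 46.1% against 50.5% exceeded the members' median (odds ratio 0.837, 0.521 to 1.34; exact test, adjusted p = 0.495 over 3 comparisons chosen after values were seen).

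Bound and unbound head-to-head pairs were compared on a window common to both, within 100 bp of the midpoint between the starts. A DRE lay in 70 of 687 bound pairs (10.2%, 8.03% to 12.7%) and 158 of 1980 unbound pairs (7.98%, 6.82% to 9.26%), an odds ratio of 1.31 (0.958 to 1.77; exact test, adjusted p = 0.0814). The share of pairs with a DRE in that window fell with the gap, from 22.4% at up to 100 bp to 0.968% at 701 to 1000 bp. Among pairs within 500 bp the odds ratio was 0.971 (0.707 to 1.32; exact test, adjusted p = 0.878), whereas with a window of 200 bp it was 1.51 (1.20 to 1.90; exact test, adjusted p = 0.000401). A different DRE frequency at bound pairs was thus not seen stably over these settings.

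The X chromosome held few of the divergent peaks: 71 of its 576 thresholded peaks (12.3%, 9.75% to 15.3%), against 142 of 624 on 2L (22.8%), 121 of 605 on 2R (20.0%), 136 of 611 on 3L (22.3%) and 206 of 776 on 3R (26.5%). The fourth chromosome had 1 of 13, CG11076/ATPsynbeta (77.7), whose partner encodes the beta subunit of ATP synthase. Of promoter peaks on the X 26.2% (71 of 271) were divergent, against 39.4% (606 of 1537) elsewhere, an odds ratio of 0.546 (0.402 to 0.734; exact test, adjusted p = 4.60e-05). Of head-to-head pairs on the X 17.4% (70 of 403) were bound, against 27.3% (617 of 2264) elsewhere, an odds ratio of 0.561 (0.420 to 0.741; exact test, adjusted p = 4.60e-05). Both comparisons were chosen after the values were seen and adjusted over 3. Embryos of both sexes were pooled and males carry a single X, and the part of X copy number in this difference was not tested.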

How the data were processed

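The deposited files hold peak lists on dm6 for each replicate, for the pooled replicates and for the peaks passing the authors' reproducibility threshold, per the labels. The signal of a peak is the authors' value from their peak caller. Aligner, caller, threshold, read depth and the use of the control experiment are not stated in the labels or lists, and control data were not analysed here. The replicate and pooled lists end at 30000 rows. The deposited lists on the older assembly were not used. No column of per-sample values was left unused beyond these lists.

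Summits were placed against the start sites of all transcripts of protein-coding genes in Ensembl release 115, in 1-based dm6 coordinates. Members, lists, elements and tests were chosen with earlier results of these data known. Shares have exact (Clopper-Pearson) 95% intervals. Groups of peaks or genes were compared by two-sided Fisher's exact tests with odds ratios, adjusted by Benjamini-Hochberg over 5 comparisons, over the panel of 15 elements, and over 3 comparisons chosen late. The distance of summits to start sites is 1 of the 5, and it is given without its test because the rule used it. With 2 replicates of 1 group no test between conditions exists, and p-values and intervals cover counting over peaks or genes only. Peaks were matched to replicate lists by summits within 150 bp. Head-to-head pairs had a minus-strand start 1 to 1000 bp left of a plus-strand start. Elements were searched in windows of 201 bp. The genes named are those at the 15 strongest and 5 weakest divergent peaks, the 5 strongest with the DRE, motif 1 and TGACNNNGC, up to 3 of each list, and the printed sequences, with others said to be chosen later. Some peaks that this rule names are not reported here. Alternatives varied promoter distance, start sites per gene, windows, matching, replicates, peak strength, GC content and 1 peak per pair. The scripts were tested on simulated data. Python 3.11.15, numpy 2.4.6, scipy 1.17.1, pandas 2.3.3, statsmodels 0.14.6 and matplotlib 3.10.9 were used.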

Additional observations from a re-analysis of the deposited data

How the results depend on the processing

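Of 108 values, each 1 result at 1 alternative setting, 86 were classed as the same. For odds ratios this meant the same direction and side of the threshold. The 86 also include the summit distances given without a test, and counts of divergent peaks, such as 853 at a promoter distance of 1000 bp and 627 with 1 start site per gene. They include every setting for the binding of genes with a head-to-head neighbour, motif 7 and GAGAGAG. The calls for TATAAA, the CGATA core and TCAGTT are not among the 108 values, so their stability is unknown. Where a value changed, the cause was not tested. The count of divergent peaks was 433 at a promoter distance of 250 bp and 401 among the 1602 peaks of highest signal, by construction. Within those 1602 peaks the signal odds ratio was 0.838 and the Cnc-Maf odds ratio 1.16. At 250 bp the odds ratios were 1.47 for the DRE at divergent peaks, 1.62 for the DRE at bound pairs and 1.07 for CAGCTG. With 1 start site per gene they were 1.46 for the DRE, 1.23 for replicate support and 0.955 for motif 1. With windows of 50 bp they were 1.26 for CAGCTG, 0.969 for motif 1 and 1.17 for Cnc-Maf, and with windows of 200 bp 2.03 for motif 1, 1.04 for Cnc-Maf and 1.51 for the DRE at bound pairs. For pairs within 500 bp the DRE at bound pairs gave 0.971, and matching within 50 bp gave 1.15 for replicate support. Using the strongest peaks of a single replicate's list, without replicate 2 or without replicate 3, gave 1.17 to 1.27 for replicate support, with the call lost in both, 1.34 to 1.35 for the DRE at bound pairs and 0.955 to 1.08 for Cnc-Maf. No paired analysis was possible because the series has a single group. Read depth is unknown, and the lists give no error for a single peak's signal.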
